A study of Spinacia oleracea with 12 samples.

Results

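The phosphoenolpyruvate carboxykinase gene (PEPCK, Spo20411), the isocitrate lyase gene (Spo13898) and the malate synthase gene (Spo16696) were followed in spinach leaf and root at high and low nitrogen supply. They are 3 of the 25495 genes in the deposited table, and they were selected on their leaf values, since the study singled them out as higher in leaf under high N. Their leaf values at high and low N are therefore described here without a test. The gene tables that the study made from the same root libraries also hold PEPCK and isocitrate lyase, so the root comparison of these genes is not independent of how they were noticed. The comparison of root with leaf at each N level was not used in choosing them. Neither were the ratios of the genes to each other within a library. Both use the leaf values on which the choice was made. That choice can enlarge a leaf excess at high N and a root excess at low N, and by how much was not tested.

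Plants of the spinach variety Banjo, 6 weeks old, were grown in a chamber with N as calcium nitrate at 200 ppm (high N) or 50 ppm (low N), and calcium was held equal with calcium chloride. Leaf RNA and root RNA were each sequenced in 3 biological replicates at each supply. This gave 12 libraries in 4 groups, high N leaf, low N leaf, high N root and low N root. The 12 libraries held 15627994 to 18608172 fragments on genes. Values are FPKM, fragment counts scaled to the length of the gene and to the fragments on genes of the library. Photosynthesis genes summed over 6 markers reached 14600 to 21800 FPKM in the leaf libraries and 3.58 to 11.9 FPKM in the root libraries, which matches the tissue in the library names. These markers do not check the N supply, which was also taken from the names. In whole organs, fewer cells that express a gene and less RNA per cell cannot be told apart.

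Isocitrate lyase and malate synthase are the enzymes particular to the glyoxylate cycle. Isocitrate lyase splits isocitrate into succinate and glyoxylate, and malate synthase joins glyoxylate to acetyl-CoA to give malate, so that carbon from fatty acids can be kept past the steps of the citric acid cycle that release carbon dioxide. PEPCK turns oxaloacetate into phosphoenolpyruvate, the entry to gluconeogenesis, and the 3 enzymes work in series in germinating oilseeds. Plant PEPCK is also known from roots and other organs in which amino acids and ammonium are metabolized. Gene names are those the study gives with each identifier, and other spinach genes for the same enzymes were not looked for.

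The study designed primer pairs for RT-qPCR of isocitrate lyase and PEPCK, which show the stretches of these transcripts that were used to assay them. The RT-qPCR values were not analysed here. Each of the 4 primers is 20 bases long with 10 G or C bases, and no base is set in capitals because none is compared.
isocitrate lyase forward: tgctgccggtgttcatatag
isocitrate lyase reverse: ctagcagccacaagcctatt
PEPCK forward: cctgtgagcaagctgaatct
PEPCK reverse: gtcgctgttggctcctttat

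PEPCK was highest in root at either N supply. In high N root it stood at 148, 233.5 and 48.1 FPKM in replicates 1, 2 and 3 (143 ± 92.8, SD, n = 3). In low N root it stood at 59.5, 32.0 and 22.4 FPKM (38.0 ± 19.2, SD, n = 3). The root groups overlapped, since replicate 3 of high N root lay below replicate 1 of low N root. The high N leaf libraries had 6.98, 2.16 and 3.44 FPKM (4.19 ± 2.50, SD, n = 3). The low N leaf libraries had 0.432, 0.0802 and 0.0985 FPKM (0.204 ± 0.198, SD, n = 3). No leaf library reached the lowest root library, and the leaf groups did not overlap.

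Among all 25495 genes of a library, PEPCK ranked in the top 1.7 to 10.9% in high N root, in the top 8.68 to 23.4% in low N root and between 38.9 and 54.6% from the top in high N leaf. Of its 20759 fragments over all libraries, 97.5% came from root. Low N leaf lay near the limit of detection, with 16, 3 and 4 fragments in replicates 1, 2 and 3. The exact Poisson intervals at 95% for these counts were 9.15 to 26.0, 0.619 to 8.77 and 1.09 to 10.2 fragments, and they cover counting error only. Replicates 2 and 3 of low N leaf could therefore not be told apart at this depth.

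Isocitrate lyase showed the opposite tissue pattern. In high N leaf it stood at 414, 30.4 and 189 FPKM in replicates 1, 2 and 3 (211 ± 193, SD, n = 3). In low N leaf it stood at 32.6, 30.7 and 5.68 FPKM (23.0 ± 15.1, SD, n = 3). The leaf groups overlapped, because replicate 2 of high N leaf lay below replicates 1 and 2 of low N leaf. High N root had 8.05, 14.7 and 9.74 FPKM (10.8 ± 3.46, SD, n = 3) and low N root had 4.43, 2.33 and 5.63 FPKM (4.13 ± 1.67, SD, n = 3). Root values were low but rested on 95 to 520 fragments per library, and the root groups did not overlap. Replicate 1 of high N leaf alone gave 53.3% of the 27677 isocitrate lyase fragments in the 12 libraries.

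By group mean malate synthase was highest in root, and it was present in every leaf library. In high N leaf it lay within the top 1.92 to 6.85% of genes. In high N root it stood at 299.7, 531 and 307 FPKM in replicates 1, 2 and 3 (379 ± 131, SD, n = 3), within the top 0.518 to 1.19% of genes. In low N root it stood at 174, 128 and 335 FPKM (212 ± 109, SD, n = 3). Replicate 3 of low N root lay above replicates 1 and 3 of high N root, so the root groups overlapped. High N leaf had 214, 55.1 and 108 FPKM (126 ± 81.0, SD, n = 3) and low N leaf had 31.0, 20.2 and 13.3 FPKM (21.5 ± 8.91, SD, n = 3). The leaf groups did not overlap, and root gave 79.5% of all malate synthase fragments.

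**Figure D1:**
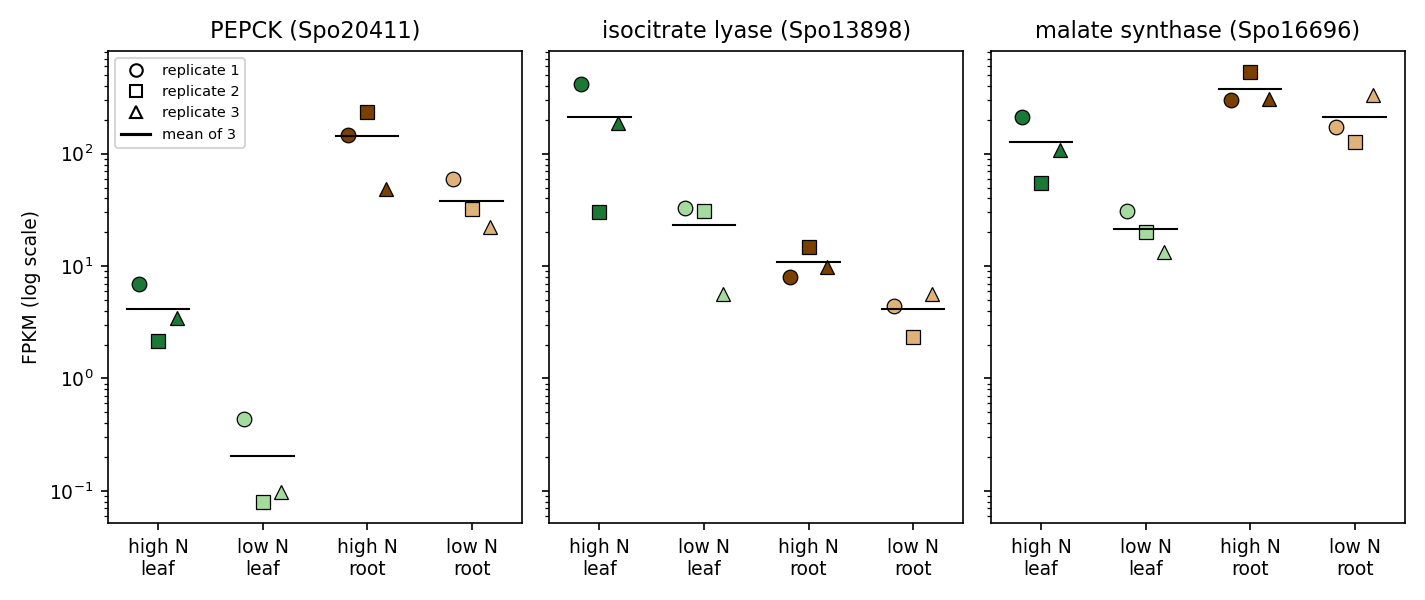
FPKM of PEPCK, isocitrate lyase and malate synthase in each library on a log scale, with a symbol for each replicate number and a bar at the mean of the 3 libraries of a group. By group mean PEPCK is highest in root and isocitrate lyase in leaf, and malate synthase is at 128 FPKM or more in all 6 root libraries.

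By group mean, the order of levels was high N root, low N root, high N leaf and low N leaf for PEPCK and for malate synthase. The order for isocitrate lyase was high N leaf, low N leaf, high N root and low N root. Neighbours that overlapped were the root groups for PEPCK, the root groups and then low N root and high N leaf for malate synthase, and the leaf groups and then low N leaf and high N root for isocitrate lyase. In the last case replicate 3 of low N leaf, at 5.68 FPKM, lay below every high N root library.

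In leaf, the contrast by which the genes were chosen, the high N mean was 20.6 times the low N mean for PEPCK, 9.18 times for isocitrate lyase and 5.86 times for malate synthase. Without replicate 1 of low N leaf the PEPCK ratio was 46.9, and without replicate 1 of high N leaf that of isocitrate lyase was 4.77 and that of malate synthase 3.80. On the log2(FPKM + 1) scale the differences were 2.01, 2.81 and 2.36. Adding 1 to each FPKM compressed the PEPCK difference, which was 3.85 when 0.1 was added instead. Leaving out 1 library at a time moved the isocitrate lyase difference between 2.00 and 3.87, PEPCK between 1.65 and 2.32 and malate synthase between 1.88 and 2.85. The leaf groups did not overlap for 2 of the 3 genes, PEPCK and malate synthase, as was the case for 17.8% of the 16522 genes with a mean of at least 1 FPKM in leaf. Of those genes, 11.2% had an unadjusted p below 0.05 with limma.

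The root comparison asked whether the 3 genes also differed with N supply outside the leaf. All 3 had the higher mean in high N root, but none passed an adjusted p below 0.05. PEPCK had a log2 fold change of 1.73 (SE 0.61) and a mean 3.77 times that of low N root. Its p was 0.0254 before and 0.408 after Benjamini-Hochberg adjustment in limma, and an exact permutation test gave p = 0.2. Isocitrate lyase had a log2 fold change of 1.22 (SE 0.31) and a mean 2.62 times as high. Its limma p was 0.00618 before and 0.342 after adjustment, and the exact permutation p of 0.1 is the smallest that 3 libraries against 3 allow in a two-sided test. Malate synthase had a log2 fold change of 0.90 (SE 0.40), with a limma p of 0.0591 before and 0.463 after adjustment and an exact permutation p of 0.3.

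Among the 17881 genes tested in root, 0.028% passed the adjusted threshold, 5 genes in all, and 11.1% had an unadjusted p below 0.05, the threshold the study used. PEPCK and isocitrate lyase were among the latter. For isocitrate lyase alone of the 3 genes the root groups did not overlap, which held for 15.6% of the genes tested. None of the 3 genes was called after adjustment by voom on the fragments either, where the adjusted p values were 0.408 for PEPCK, 0.332 for isocitrate lyase and 0.47 for malate synthase. The unadjusted p of PEPCK rose to 0.0687 without replicate 1 of high N root, to 0.0711 without replicate 2 of high N root, to 0.0744 without replicate 2 of low N root and to 0.0862 without replicate 3 of low N root. For isocitrate lyase it stayed below 0.05 without any single root library and was 0.17 when all 4 groups shared an estimate of the spread. For malate synthase it fell to 0.00807 without replicate 3 of low N root.

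Replicate 3 of high N root had the lowest PEPCK value of its group. The same library held 318 FPKM summed over 3 nitrate and ammonium uptake genes, which are genes known to rise in N-limited roots, against 92.6 and 54.6 FPKM in replicates 1 and 2. In low N root the sums were 514, 578 and 401 FPKM, so in this sum replicate 3 of high N root lay nearer to the low N roots than its fellow libraries did. The study reported these uptake genes as induced in low N root from the same libraries. Isocitrate lyase (9.74 FPKM) and malate synthase (307 FPKM) in replicate 3 of high N root lay between replicates 1 and 2. In low N root, replicate 3 had the lowest PEPCK value, 22.45 FPKM, and also the lowest uptake sum. Without replicate 3 of high N root the PEPCK log2 fold change in root was 2.37 (limma adjusted p = 0.121). Whether the uptake gene level of that library plays a part in its PEPCK level was not tested.

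**Figure D2:**
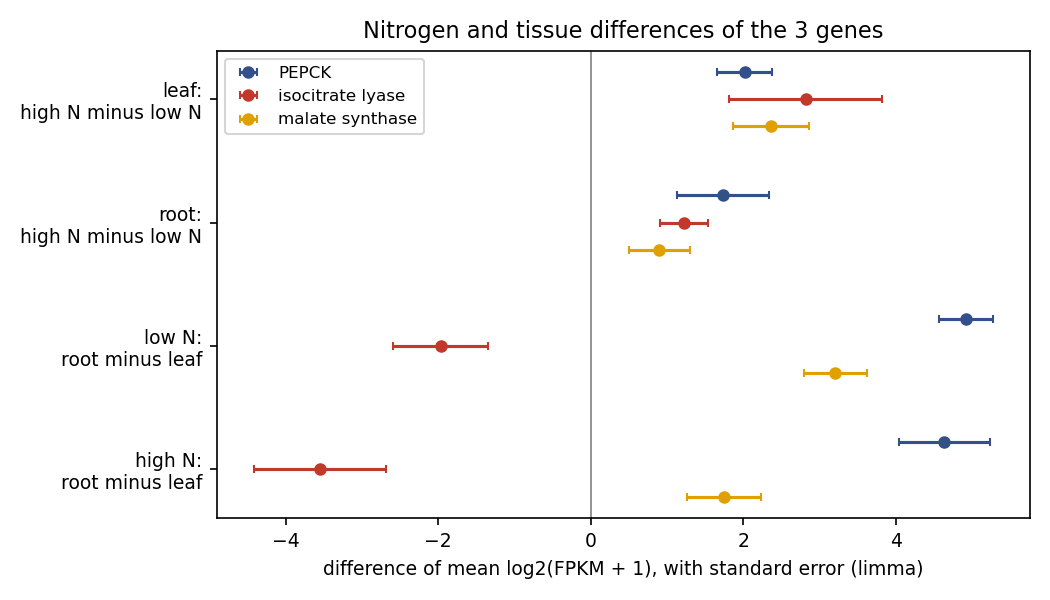
Differences of mean log2(FPKM + 1) with their standard errors from limma, for the leaf and root comparisons of high N with low N and for root minus leaf at each N supply. The N differences of the 3 genes lie between 0.90 and 2.81, and in the tissue differences isocitrate lyase lies below 0 while PEPCK and malate synthase lie above it. The genes were chosen on the leaf comparison of high N with low N, so its standard errors are not to be read as a test.

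Root and leaf differed at both N levels for each of the 3 genes. The leaf arm of these tests holds the values on which the genes were chosen. At low N, PEPCK was higher in root by 4.92 on the log2(FPKM + 1) scale (SE 0.35, limma adjusted p = 1.77e-05), and the root mean was 186.6 times the leaf mean. That fold rests on the few leaf fragments given above and was 425-fold without replicate 1 of low N leaf. At high N the difference was 4.63 (SE 0.60, limma adjusted p = 0.000467) and the root mean was 34.1 times as high. Malate synthase was higher in root by 3.20 at low N (SE 0.41, limma adjusted p = 0.000414), a 9.88-fold difference of means. At high N the malate synthase difference was 1.74 (SE 0.49, limma adjusted p = 0.0159), a 3.01-fold difference of means that was 4.64-fold without replicate 1 of high N leaf. That call was lost without replicate 2 of high N root (1.47, limma adjusted p = 0.0573) and with median-of-ratios scaling (1.19, limma adjusted p = 0.0609).

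Isocitrate lyase was the gene of the 3 that was lower in root. At high N its root minus leaf difference was -3.55 (SE 0.86, limma adjusted p = 0.00895), and the leaf mean was 19.5 times the root mean. The choice of genes that were higher in high N leaf can enlarge this difference. Without replicate 1 of high N leaf the difference was -2.75 and the leaf mean 10.1 times the root mean, and without replicate 2 of high N leaf the difference was -4.61. At low N the difference was -1.97 (SE 0.62, limma adjusted p = 0.0271) and the leaf mean was 5.58 times the root mean. The low N call depended on single libraries. Its adjusted p in limma became 0.0677 without replicate 1 of low N leaf, 0.0961 without replicate 2 of low N leaf, 0.0623 without replicate 1 of low N root and 0.0962 without replicate 2 of low N root. With all 4 groups in 1 fit it was 0.0558.

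The libraries of leaf and root did not overlap for any of the 3 genes at either N supply, with an exact permutation p of 0.1 each, the smallest possible. For isocitrate lyase at low N the gap was narrow, from 5.63 FPKM in the highest root library to 5.68 FPKM in the lowest leaf library. The share of all genes without overlap between tissues was not counted, so the lack of overlap is not read as particular to these genes. Tissue differences were common, with 61.3% of 18408 genes called at low N and 67.6% of 18247 at high N. The median gene was higher in root by 0.55 at low N and by 0.52 at high N on the deposited scale. Relative to that median PEPCK stood at 4.36 and 4.11, malate synthase at 2.65 and 1.22, and isocitrate lyase at -2.52 and -4.08, at low and high N in turn.

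Transcripts typical of the other organ were low in these libraries. The 3 nitrate and ammonium uptake genes summed to 0.928 to 9.31 FPKM in leaf and to 54.6 to 578 FPKM in root. Of these, the nitrate transporter gene NRT2.1, at 167 FPKM or more in low N root and 0.198 to 101 FPKM in high N root, was at 0 in all high N leaf libraries and reached at most 0.0355 FPKM in low N leaf. The ammonium transporter gene Spo24676 stood at 0.85 to 2.25 FPKM in high N leaf, where PEPCK stood at 2.16 to 6.98 FPKM. Any part of root RNA in the leaf values of PEPCK was not tested. The root libraries held no more than 11.9 FPKM of photosynthesis transcripts that summed to at least 14600 FPKM in leaf, and isocitrate lyase there reached 14.7 FPKM.

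The ratio of the genes within a library does not depend on how the libraries are scaled to each other. In leaf, isocitrate lyase and malate synthase were of similar level. Isocitrate lyase was 1.93, 0.551 and 1.75 times malate synthase in replicates 1, 2 and 3 of high N leaf. It was 1.05, 1.52 and 0.428 times malate synthase in low N leaf. In root, malate synthase was far in excess. The ratio of isocitrate lyase to malate synthase was 0.0269, 0.0277 and 0.0318 in high N root, so that malate synthase was 31.5 to 37.2 times as high. It was 0.0254, 0.0182 and 0.0168 in low N root, where malate synthase was 39.3 to 59.5 times as high.

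PEPCK changed its place against both glyoxylate cycle genes. It was 0.0326, 0.0391 and 0.0318 times malate synthase in high N leaf, the narrowest range of the leaf ratios, although each of these genes differed more than 3-fold between the same libraries. In low N leaf the ratio was 0.0139, 0.00396 and 0.00742, on the few PEPCK fragments given above. In root PEPCK was 0.493, 0.44 and 0.157 times malate synthase at high N and 0.341, 0.25 and 0.067 times at low N. Replicate 3 had the lowest ratio in both root groups. Against isocitrate lyase, PEPCK was 4.93 to 18.4 times as high in high N root and 3.99 to 13.7 times in low N root, against ratios of 0.0169 to 0.071 in high N leaf and 0.00261 to 0.0174 in low N leaf.

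Each of the 3 ratios separated the 6 root from the 6 leaf libraries with no overlap. The exact permutation p was 0.00216, which was also the adjusted value over the 3 ratios. It is the smallest possible when 12 libraries are shuffled freely, and the shuffling did not keep libraries within their N supply. The ratios use the same values as the tissue comparisons above, so this p is not separate support for a tissue difference. Within each N supply, the non-overlap of the single genes already fixed that of both ratios with isocitrate lyase. The ratio of PEPCK to isocitrate lyase also follows from the other ratios. How often other gene pairs separate the tissues was not counted. The mean log2 ratio of isocitrate lyase to malate synthase differed by -5.45 between root and leaf, a 43.7-fold lower ratio in root. The ratio of PEPCK to malate synthase was higher in root by 3.91 on the log2 scale, 15.1-fold, and that of PEPCK to isocitrate lyase by 9.36, 658-fold. Within each N supply, where 3 libraries face 3, the exact permutation p of each ratio was 0.1. The sources do not say whether leaf and root of the same number came from the same plant, and the test treats the libraries as independent. Between high and low N root, the ratio of isocitrate lyase to malate synthase did not overlap (exact permutation p = 0.1), while both PEPCK ratios did (p = 0.5 each).

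**Figure D3:**
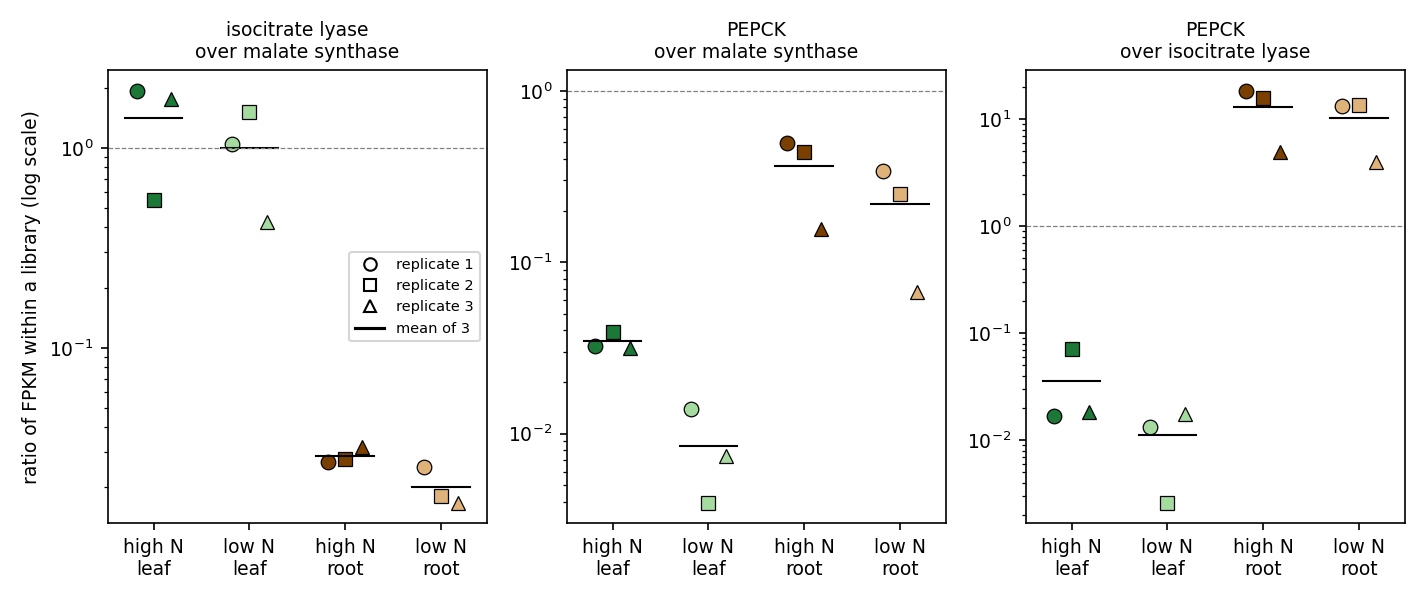
Ratios of FPKM between the 3 genes within each library on log scales, with a symbol for each replicate number, a bar at the mean of a group and a dashed line at a ratio of 1. Isocitrate lyase over malate synthase lies between 0.428 and 1.93 in leaf and between 0.0168 and 0.0318 in root.

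Libraries of the same group differed widely for these genes. In high N leaf, isocitrate lyase was 13.6 times as high in replicate 1 as in replicate 2, malate synthase 3.89 times and PEPCK 3.24 times. Of the 16330 genes with a mean of at least 1 FPKM in high N leaf, 0.404% had a larger SD on the log2(FPKM + 1) scale than isocitrate lyase, 3.23% a larger one than malate synthase and 7.32% a larger one than PEPCK. In high N root the spread was largest for PEPCK, where 1.67% of 17742 genes had a larger SD, against 17.2% for isocitrate lyase and 13.5% for malate synthase.

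The libraries fell in the same order for isocitrate lyase and malate synthase in each of the 4 groups. In high N leaf all 3 genes were highest in replicate 1 and lowest in replicate 2, an order shared by 30.5% of the genes expressed there. In low N leaf all 3 were highest in replicate 1, as were 35.7% of 16484 genes, but PEPCK, on 3 and 4 fragments, had replicates 2 and 3 in the other order. In high N root all 3 genes were highest in replicate 2, as were 31.9% of genes. The lowest there was replicate 1 for isocitrate lyase and malate synthase and replicate 3 for PEPCK, orders shown by 11.4% and 20.4% of genes. In low N root isocitrate lyase and malate synthase were highest in replicate 3 and lowest in replicate 2, the order of 18.6% of 17865 genes. PEPCK was highest in replicate 1 and lowest in replicate 3 there, the order of 11.5%. Replicate numbers carry no order of their own, and these shares are given as a description.

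Over all 12 libraries, the likeness of profiles was measured as the root mean square difference of log2(FPKM + 1) after each gene was centred on its own mean, among 18410 other genes. The profile of PEPCK differed from that of malate synthase by 1.36, the place 634 among these genes, and from that of isocitrate lyase by 3.89, the place 17414. Isocitrate lyase and malate synthase, which act in succession, differed by 2.68, and malate synthase was in place 15122 for isocitrate lyase. The tissue difference dominates these values.

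The genes nearest to PEPCK were Spo00053, annotated as LURP-one-related 12 (0.532), Spo11439, annotated as the pathogenesis-related protein STH-21 (0.692), and Spo23177, without an annotation in the study's tables (0.76), against a median of 2.42 over all genes. Spo00053 stood at 35.2 to 67.5 FPKM in high N root, 12.1 to 26.7 in low N root, 0.872 to 3.12 in high N leaf and at most 0.175 in low N leaf, the same order of groups as PEPCK. The genes nearest to isocitrate lyase were farther off. They were Spo11029, annotated as peroxidase 52 (0.842), Spo22719 (0.882) and Spo22842 (0.902), against a median of 2.24. Spo11029 stood at 6.85 to 20.3 FPKM in high N leaf and at no more than 2.96 FPKM in any other group.

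The genes nearest to malate synthase were Spo11774, annotated as expansin-like A1 (0.497), Spo26834, annotated as the mitochondrial alanine-glyoxylate aminotransferase AGT2 (0.551), and Spo24769 (0.574), against a median of 1.5. AGT2, an enzyme known to transfer the amino group of alanine to glyoxylate, stood at 235 to 426 FPKM in high N root, 98.2 to 195 in low N root, 80.6 to 114 in high N leaf and 26.2 to 38.3 in low N leaf. With a pseudocount of 0.1, 4 of the 9 nearest genes remained among the nearest, and with Pearson correlation in place of the difference 2 of 9 did. The choice of neighbours thus depends on the measure.

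**Figure D4:**
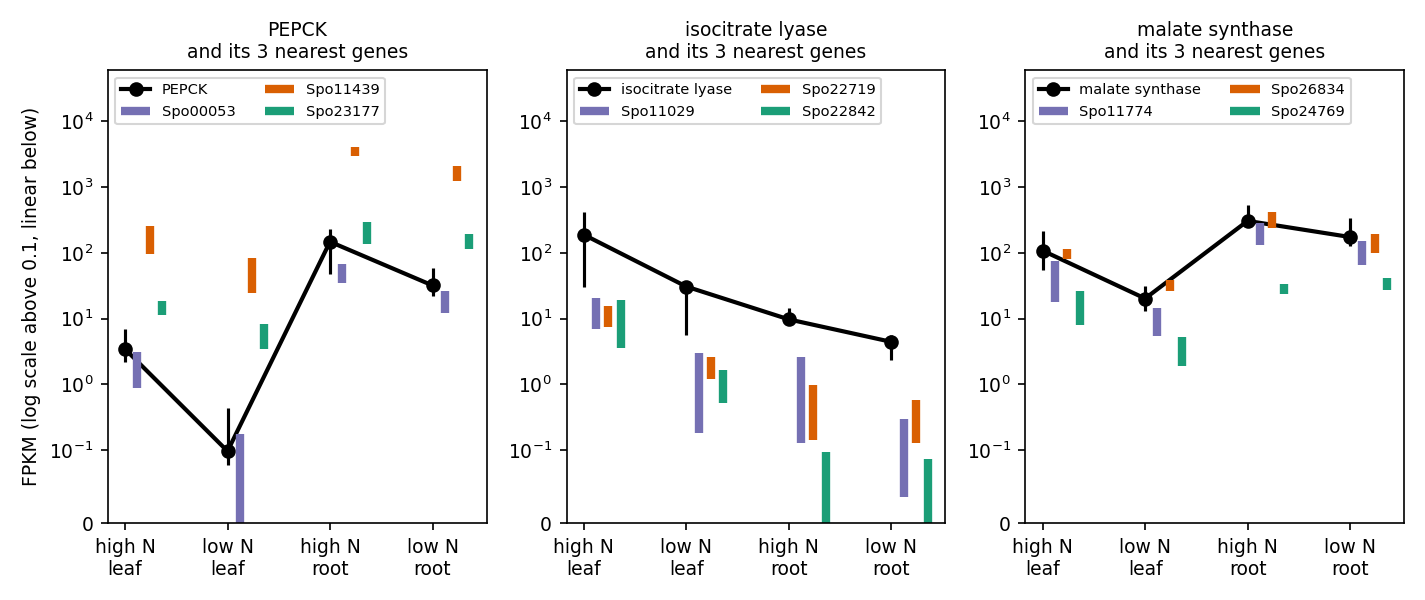
FPKM of PEPCK, isocitrate lyase and malate synthase (black, median with the range of 3 libraries) and of the 3 genes with the nearest profile to each (coloured bars, range of 3 libraries) in the 4 groups. The axis is logarithmic above 0.1 FPKM and linear below. Spo11774 and Spo26834 follow malate synthase from low N leaf up to high N root.

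Genes that neighbour the 3 enzymes in metabolism were taken from the gene tables of the study, which hold only genes it called in these libraries, so their N responses are not independent evidence. They comprise 13 genes of phosphoenolpyruvate, pyruvate and organic acid metabolism, 5 of fatty acid breakdown and the peroxisome, 3 glyoxylate aminotransferases and 8 of amino acid breakdown. In root, 27 of the 29 had a mean of at least 1 FPKM and were tested, and at an unadjusted p below 0.05 in limma 13 were higher and 2 lower under high N, beside 4.63% higher and 6.52% lower of the 17881 genes tested. None was called after adjustment, by limma or by voom, which counted the same numbers before adjustment. The median root log2 fold change was 0.28 for the organic acid genes, 0.60 for fatty acid breakdown, 1.01 for the aminotransferases and 0.85 for amino acid breakdown, beside -0.05 over all genes tested.

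In the organic acid group, 5 of 12 genes tested were higher in root and 6 lower at low N, and 5 were higher and 5 lower at high N. Of all genes tested, 46.1% were higher and 15.2% lower in root at low N, and 50.5% were higher and 17.1% lower at high N. The cytosolic fructose-1,6-bisphosphatase gene Spo19523, whose enzyme acts downstream of PEPCK on the way to sucrose, stood at 186 to 396 FPKM in leaf and 12.8 to 43.1 FPKM in root. Its root minus leaf difference was -3.82 at low N (limma adjusted p = 3.54e-06) and -3.43 at high N (limma adjusted p = 5.85e-05), the reverse of PEPCK. The product of the succinate-fumarate carrier gene SFC1 (Spo12390) takes succinate of the glyoxylate cycle into mitochondria. SFC1 was higher in root by 1.11 at low N (limma adjusted p = 0.003) and by 0.73 at high N (limma adjusted p = 0.00903). The median gene was itself higher in root by 0.55 at low N and 0.52 at high N, so little of the SFC1 difference at high N exceeded that shift. The root difference of SFC1 between N supplies was 0.28 (limma adjusted p = 0.677).

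Of the genes that handle phosphoenolpyruvate, the PEP carboxylase kinase gene PPCK1 (Spo14015), whose product activates the enzyme that makes oxaloacetate from phosphoenolpyruvate, stood at 75.3 to 104 FPKM in high N root and 144 to 190 FPKM in low N root. Its N difference in root was -0.96 (limma adjusted p = 0.232), opposite in sign to that of PEPCK. PPCK1 was higher in root than in leaf by 3.60 at low N and 4.85 at high N (limma adjusted p = 0.000521 and 8.36e-06). The plastid pyruvate kinase gene PKP2 (Spo15973) was higher in root by 2.16 and 1.62 at low and high N (limma adjusted p = 0.000168 and 0.00015). The plastid PEP/phosphate translocator gene PPT2 (Spo23993), whose product moves phosphoenolpyruvate across the plastid envelope and which is named here after its values were seen, was lower in root, with -2.62 at low N and -1.85 at high N (limma adjusted p = 8.48e-05 and 0.000878). The cytosolic pyruvate kinase gene Spo04407 had a mean below 1 FPKM in root and was not tested there.

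The genes of fatty acid supply did not share the tissue pattern of isocitrate lyase. The triacylglycerol lipase gene SDP1 (Spo01480), known in Arabidopsis for mobilizing seed oil, differed between root and leaf by -0.04 at low N and 0.18 at high N (limma adjusted p = 0.904 and 0.567). Its N difference in root was 0.72 (limma adjusted p = 0.416). The acyl-CoA oxidase gene ACX3 (Spo19618), of the first step of peroxisomal fatty acid oxidation, was higher in root by 1.31 at low N and 1.94 at high N (limma adjusted p = 0.00127 and 2.21e-05).

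The glyoxylate aminotransferase genes split by tissue. The serine-glyoxylate aminotransferase gene Spo11992, of photorespiration, stood at 410 to 675 FPKM in leaf and 10.4 to 48.3 FPKM in root, with root minus leaf differences of -4.38 at low N and -3.87 at high N (limma adjusted p = 8.15e-05 and 2.59e-06). AGT2 was higher in root by 2.18 at low N and 1.71 at high N (limma adjusted p = 0.000459 and 0.000975), and its N difference in root was 1.01 (limma adjusted p = 0.396). The alanine-glyoxylate aminotransferase 2 homolog 3 gene Spo12360, named here after its values were seen, was also higher in root. Its differences were 4.43 at low N and 4.34 at high N (limma adjusted p = 0.000185 and 0.000625).

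Among the genes of amino acid breakdown, 5 of 8 were higher in root at low N and 4 of 8 at high N, and none passed the threshold as lower. These counts are near the shares of all genes higher in root, 46.1% and 50.5%. The fumarylacetoacetase gene Spo10602, also named after its values were seen and called at low N with 0.54, lay at the shift of the median gene, 0.55. The glutamate dehydrogenase gene Spo13173, whose enzyme releases ammonium from glutamate, was higher in root by 1.96 and 1.56 (limma adjusted p = 0.000865 and 0.00523) and had an N difference in root of 0.84 (limma adjusted p = 0.428). The proline dehydrogenase gene Spo24050 did not pass the threshold between tissues, with 1.88 at low N and 0.41 at high N (limma adjusted p = 0.131 and 0.137). Subtracting the shift of the median gene left the sign of each tissue call named above as it was, except that of Spo10602 at low N.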

How the data were processed

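RNA-seq of 12 libraries was deposited by the authors as FPKM for 25495 genes. Per the study's methods, TopHat v2.0.12 placed the read pairs on the genome through a Bowtie v2.2.3 index, and HTSeq v0.6.1 assigned them to genes. FPKM was then computed from the length and read count of each gene. The submitters' processing notes name fastp, HISAT2 2.1.0, featureCounts and DESeq2 instead, and which of them made the table was not settled. Groups were taken from the library names, although tissue or treatment tags disagree with the names in 9 of 12 libraries. Tissue tags disagree in 6 libraries and treatment tags in 6, and only the tissue was checked by markers. The table held 0 other per-sample columns. FPKM were exact multiples of 1 fragment, so fragments were worked back for 23015 genes, and 2480 genes were 0 throughout. These fragments made up at least 99.99% of the library total by which FPKM were scaled, so that total is the fragments on genes.

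Values were taken as log2(FPKM + 1), genes whose mean FPKM was under 1 were left out, and groups were compared in limma 3.58.1 (R 4.3.3, trended variance), with Benjamini-Hochberg adjustment over all genes tested. Exact permutation tests were two-sided. p-values measure the spread between 3 plants a group. SciPy 1.17.1, NumPy 2.4.6 and pandas 2.3.3 under Python 3.11.15 gave the other values, matplotlib 3.10.9 the plots, and the fits were tested on simulated data. Genes named are the 3 genes, the 3 nearest in profile to each, list genes chosen for role or, where said, after their values were seen, and markers. The genes and lists were chosen with earlier results of these data known. Names come from the study, since 0 identifiers matched the RefSeq table. 3 fragments were the floor of detection, or 0.161 to 0.192 FPKM for 1 kb.

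Alternatives were a pseudocount of 0.1, no filter, a minimum mean of 5 FPKM, quantile normalization, median-of-ratios scaling, all 4 groups in 1 fit, a replicate block, voom on the fragments and each library left out in turn. Same-numbered leaf and root libraries at low N deviated together, with correlations of 0.268, 0.106 and 0.302 for numbers 1, 2 and 3. At high N the correlations were 0.133, 0.377 and 0.089, and for number 1 another number reached 0.187. This is a hint of pairs from the data and not from the design. The main fits did not pair the libraries, and only the replicate block did so.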

Additional observations from a re-analysis of the deposited data

How the results depend on the processing

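Over 14 alternatives each, PEPCK in root lay at 1.25 to 2.37 (high N minus low N, adjusted p 0.121 to 0.899), isocitrate lyase at 0.94 to 1.45 (0.192 to 0.863) and malate synthase at 0.59 to 1.29 (0.38 to 0.907), and none was called. The number of genes called in root, 5, was 0 with no filter and 0 with the replicate block (2295 and 1991 at an unadjusted p below 0.05 in limma), 95 with all 4 groups in 1 fit and 2 with voom, and ranged from 0 to 18 with 1 library left out, when genes at an unadjusted p below 0.05 ranged from 977 to 3110. In root the numbers did not pair the libraries (correlations 0.098, -0.024 and 0.097), and numbers 1 and 3 but not 2 correlated best with their own number. The replicate block changed no call of the 3 genes in any comparison. Root minus leaf differences of PEPCK held in all 14 alternatives at either N supply, up to 7.72 at low N with voom and 7.04 with a pseudocount of 0.1, as did malate synthase at low N and isocitrate lyase at high N, the last from -4.61 to -2.75 with 1 library left out. Isocitrate lyase at low N ranged from -2.73 to -1.56 with 1 library left out, and with all 4 groups in 1 fit it was -1.97 (adjusted p = 0.0558). Malate synthase at high N ranged from 1.26 to 2.23 with 1 library left out and was 1.19 with median-of-ratios scaling (adjusted p = 0.0609). In leaf, PEPCK was 3.85 with a pseudocount of 0.1. Of the 9 nearest genes, 4 were kept with a pseudocount of 0.1 and 2 with Pearson correlation. Of the genes called between tissues, 75.1% were higher in root at low N and 74.7% at high N, against 52.8% and 52.4% with median-of-ratios scaling and 53.4% and 53.1% with quantile normalization. Where the construction of the alternative does not show it, the cause was not tested. Among the 3 genes, depth limits only PEPCK in low N leaf, at 3 to 16 fragments.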
